A study of Zea mays with 217 samples.

Results

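Among the 104 maize transcription factors (TFs) profiled by ChIP-seq in leaf protoplasts, 5 of the 11 basic helix-loop-helix (bHLH) TFs had target lists that overlapped closely: bHLH43, bHLH163, bHLH118, bHLH162 and bHLH172. They were chosen by that overlap, read from the same target table that is described here. Their overlaps, their common targets and the p-values in their lists are therefore a description of how these TFs look, and no test stands behind any comparison. Their lists held 15517 of the 272627 TF-gene pairs in the table, or 5.69%.

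Protoplasts, here leaf mesophyll cells freed of their walls, were prepared from B73 seedlings 1 to 2 weeks old. Each TF was expressed from a transformed plasmid, so its level may have differed from that in the plant. bHLH43, bHLH163, bHLH118, bHLH162 and bHLH172 had 2 libraries each, 10 of the 217 libraries in all, and the other 99 TFs were expressed in the same kind of cells. TF-DNA complexes were recovered with streptavidin beads, peaks reproducible between replicates were kept, and TIP (target identification from profiles) scored each gene by the binding of that TF around the gene start. The authors deposited 1 p-value per TF and target gene with the replicates pooled, so no value below has a replicate error, and the depth behind a value is unknown.

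bHLH proteins bind DNA as dimers. The basic region contacts short E-box elements, of which the palindromic G-box is the best known in plants, and the helix-loop-helix region joins the partners. The plant family is large and includes the phytochrome-interacting factors (PIFs), which are degraded in light and restrain light responses in dark-grown seedlings. It also includes the MYC factors of jasmonate signalling, which JAZ proteins (the ZIM family) repress, and regulators of iron uptake.

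The identifiers of the 5 TFs tie some of them to this background. The RefSeq annotation of assembly NAM-5.0 gives bHLH163 (GRMZM5G865967, Zm00001d031044) the synonym PIF4 and bHLH43 (GRMZM2G165042, Zm00001d033267) the synonym PIF5. It has no descriptive synonym for bHLH118 (GRMZM2G061906, Zm00001d038357). It places the identifiers of bHLH162 (GRMZM2G093744, Zm00001d024679) and bHLH172 (GRMZM2G017586) in the same gene, LOC100280093, with bHLH172 among its synonyms. Whether these identifiers are alleles, copies or split models of 1 locus was not tested, so bHLH162 and bHLH172 may not be unrelated members. The study expressed bHLH43 from a synthesised, codon-optimised open reading frame, bHLH118 and bHLH172 from cDNA clones, and bHLH163 and bHLH162 from RT-PCR products of B73 RNA. The gene parts of the forward primers of the amplified pair are shown because they fix where the expressed proteins begin. They are written 5′ to 3′ with the start codon in capitals.
bHLH163: ATGcagacagcgatcgagca
bHLH162: ATGtctctcgccccggaccc

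The 5 lists were of nearly equal length. bHLH163 had 3157 targets, bHLH118 had 3153, bHLH43 had 3135, bHLH162 had 3053 and bHLH172 had 3019. Against the 20067 genes that at least 1 of the 104 TFs listed, these are 15.7% for bHLH163, 15.7% for bHLH118, 15.6% for bHLH43, 15.2% for bHLH162 and 15% for bHLH172. By length of list they ranked between 13th (bHLH163) and 31st (bHLH172) of the 104 TFs. The other bHLH TFs had 3077 (bHLH47), 2953 (bHLH136), 2935 (bHLH129), 2607 (bHLH108), 2413 (bHLH145) and 21 (bHLH91) targets. The length of a list thus did not set the 5 apart from bHLH47, bHLH136 or bHLH129.

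The p-values differed more between the members. bHLH172, the shortest list, held the most targets with a p of at most 0.001, namely 884, or 29.3% of its list. bHLH118 had 609 such targets (19.3%), bHLH162 had 604 (19.8%), bHLH43 had 575 (18.3%) and bHLH163 had 472 (15.0%). At a p of at most 1e-05 the count was 311 for bHLH172 and 74 for bHLH163, with bHLH162 (149), bHLH118 (125) and bHLH43 (108) between them. The median p of a listed target was 0.00658 for bHLH172, 0.0102 for bHLH162, 0.0117 for bHLH118, 0.0123 for bHLH43 and 0.0132 for bHLH163. TIP scores a gene relative to the profile of that TF, so these values compare the shape of the lists and not the strength of binding.

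Overlap between lists was measured with the Jaccard index, the number of shared targets divided by the number listed by either TF. The 10 pairs among the 5 TFs had a mean index of 0.476. The highest was bHLH43 with bHLH163, the pair that carries the PIF5 and PIF4 synonyms, at 0.539 with 2204 shared targets. These were 70.3% of the bHLH43 list and 69.8% of the bHLH163 list. It was followed by bHLH162 with bHLH172 at 0.515 (2063 shared targets, 67.6% of the bHLH162 list and 68.3% of the bHLH172 list) and by bHLH43 with bHLH118 at 0.512 (2128 shared targets). The lowest was bHLH163 with bHLH172 at 0.388, with 1727 shared targets. The remaining pairs lay between 0.459 and 0.490, so the lowest index joined a TF from each of the closest pairs, and bHLH118 had an index of at least 0.464 with each of the other members.

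The 5 TFs were not cleanly separated from the rest. Their 30 pairs with the 6 other bHLH TFs had a mean Jaccard index of 0.281, or 0.336 over 25 pairs without bHLH91, whose 21 targets keep the index near 0. The lowest of the 30 was bHLH162 with bHLH91 (0.00294) and the highest bHLH43 with bHLH47 (0.474), which exceeded 6 of the 10 pairs within the set. bHLH118 with bHLH47 had 0.467 and bHLH163 with bHLH136 had 0.453. The 465 pairs with TFs that are not bHLH had a mean of 0.265, from 0.0206 for bHLH162 with MYBR40 to 0.465 for bHLH163 with MYB31. In total 23 of the 495 pairs that lead out of the set, 8 with other bHLH TFs and 15 with TFs of other families, were above the lowest pair within it. For bHLH163 the second closest list of all 103 was that of MYB31, an R2R3 MYB factor, and for bHLH43 the third closest was that of bHLH47. For bHLH162 and bHLH172, in contrast, the other 4 members were the 4 closest lists. The 15 pairs among the 6 other bHLH TFs had a mean of 0.172, or 0.256 over the 10 pairs without bHLH91, and the 4851 pairs among the 99 other TFs had a mean of 0.224.

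**Figure D1:**
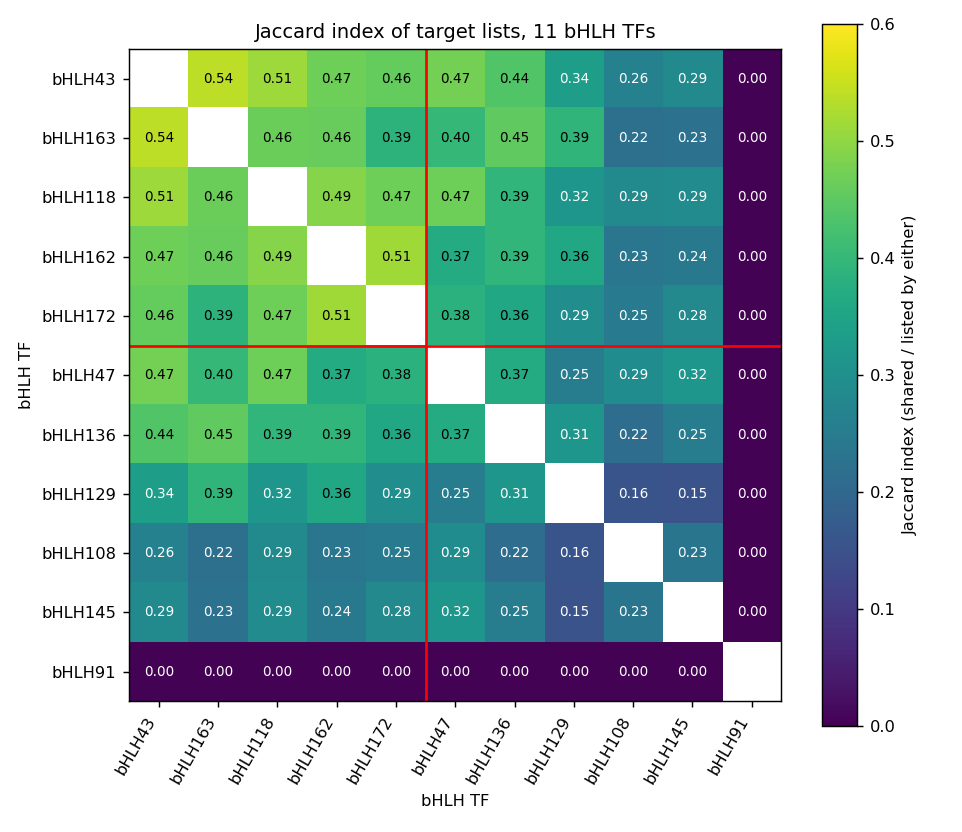
Jaccard index of the target lists of 11 bHLH TFs, with bHLH43, bHLH163, bHLH118, bHLH162 and bHLH172 left of and above the red lines and the 6 other bHLH TFs beyond them. The 10 pairs within the set run from 0.388 to 0.539, and the column of bHLH47 reaches 0.474 with bHLH43, while bHLH91 with its 21 targets stays near 0.

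Sets of 5 TFs can also be compared by the overlap within each set. The members are set beside 5 MYB TFs (MYB4, MYB6, MYB31, MYB38 and MYB88) and beside the other bHLH TFs without bHLH91. MYB37, MYB56, MYB62 and MYB81 were left out of that MYB set, which was fixed with earlier results of these data known. The members were chosen by overlap and the other bHLH TFs are those that this choice left, so the comparison is not a test. All 5 of bHLH43, bHLH163, bHLH118, bHLH162 and bHLH172 listed 1157 genes, which is 20.3% of the 5713 genes listed by any of them. The 5 MYB TFs had 951 common genes of 5837 (16.3%), with a mean Jaccard index of 0.432 and a range of 0.327 to 0.581. For bHLH47, bHLH136, bHLH129, bHLH108 and bHLH145 the counts were 264 of 7235 (3.65%), with a mean index of 0.256. Of the 264 genes common to those 5, 222 were also among the 1157, which are 5.77% of all genes of the table. Of the 951 genes common to the MYB TFs, 525 were. The 264 genes had a median of 74 TFs outside their own set, and the 951 genes had 61. Of all genes that 61 to 80 TFs outside the members listed, 57.8% were among the 1157. The part of this wide listing in the counts was not tested.

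The 1157 genes listed by all 5 TFs are called core targets here. They are 5.77% of the 20067 genes of the table, and the genes listed by at least 1 of the 5 are 28.5%. The remainder of the 5713 were listed by 4 TFs (799 genes), 3 TFs (853), 2 TFs (1073) or 1 TF (1831), so the core was larger than any of the middle classes. Core targets made up between 36.6% (bHLH163) and 38.3% (bHLH172) of a list. Of the combinations of 4, the largest lacked bHLH172 (224 genes) and the next lacked bHLH163 (212), and the smallest lacked bHLH43 (100). Of the genes listed by exactly 2 members, bHLH43 with bHLH163 held 208 genes and bHLH162 with bHLH172 held 182, whereas bHLH163 with bHLH172 held 32. Of the triples, bHLH43, bHLH163 and bHLH118 held 180 and bHLH118, bHLH162 and bHLH172 held 146, and the other triples held 31 to 98. Below the core, the pairs and triples with the most genes thus held either bHLH43 with bHLH163 or bHLH162 with bHLH172, and in the triples bHLH118 was the added member.

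**Figure D2:**
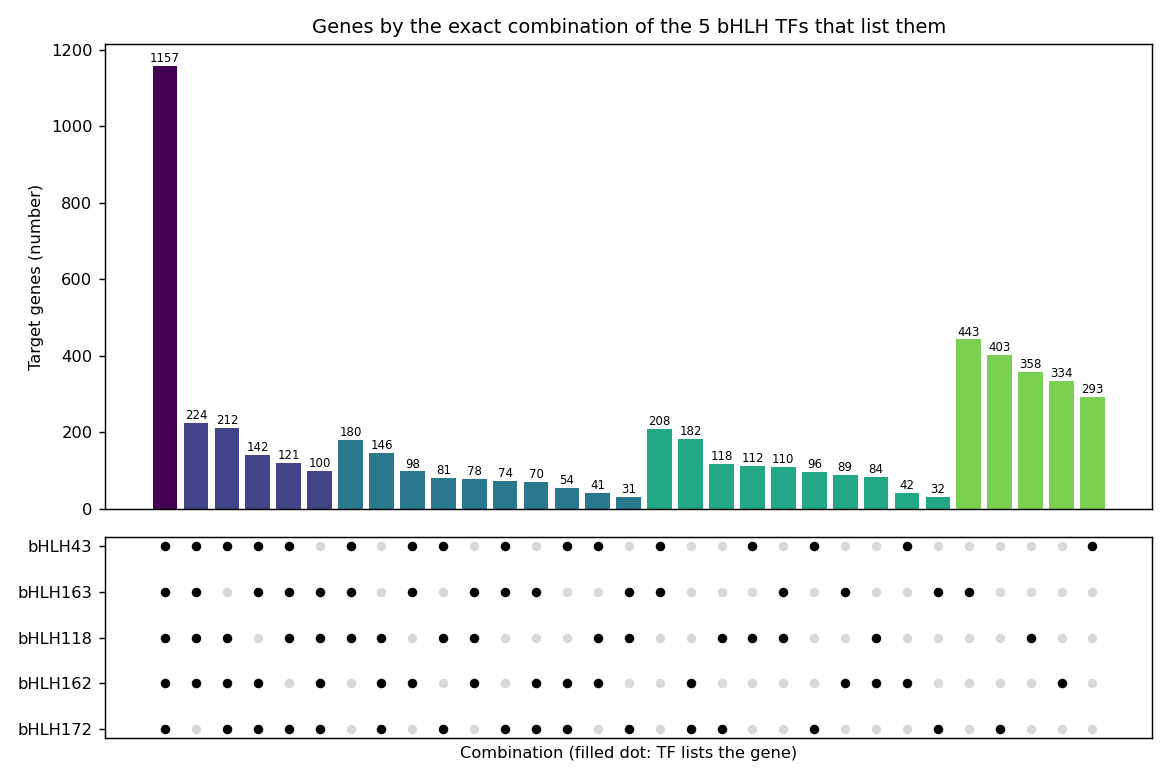
Number of target genes (bars) for each exact combination of the 5 bHLH TFs, ordered by the number of TFs and then by size, with filled dots marking the TFs that list the gene. The core of 1157 genes is the tallest bar, the pairs of bHLH43 with bHLH163 (208) and bHLH162 with bHLH172 (182) are the tallest among pairs, and bHLH163 with bHLH172 (32) is the lowest of them.

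Targets common to the 5 TFs were, for the most part, genes that many other TFs listed too. A core target was listed by a median of 56 of the 99 other TFs, with quartiles of 36 and 73 and a range of 2 to 94. The median was 39 for genes of 4 members, 28 for genes of 3, 20 for genes of 2, 13 for genes of 1 and 3 for the 14354 genes that none of the 5 listed. Over all 20067 genes it was 5. Counting only the 93 TFs that are not bHLH, the median was 53 on core targets, 12 on genes of 1 member and 3 on genes of none. Of the core targets, 675 (58.3%) had at least 50 other TFs and 180 (15.6%) had at least 80.

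Read in the other direction, the share of core targets grew with the number of other TFs on a gene. It was 0.18% (24 of 13369) among genes with 1 to 10 other TFs, 3.07% (79 of 2571) with 11 to 20, 11.1% (242 of 2189) with 21 to 40, 28.0% (313 of 1116) with 41 to 60 and 57.8% (334 of 578) with 61 to 80. Among genes with 81 or more it was 91.2% (165 of 181), and each of those 181 genes was listed by at least 1 of the 5. Conversely, 90.8% of the genes with 1 to 10 other TFs were listed by none of the 5. The study's list of 206 hub genes, which was drawn from the number of TFs in these data and counts the 5 members too, held 187 core targets, 17 genes of 4 members and 2 genes of 3.

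**Figure D3:**
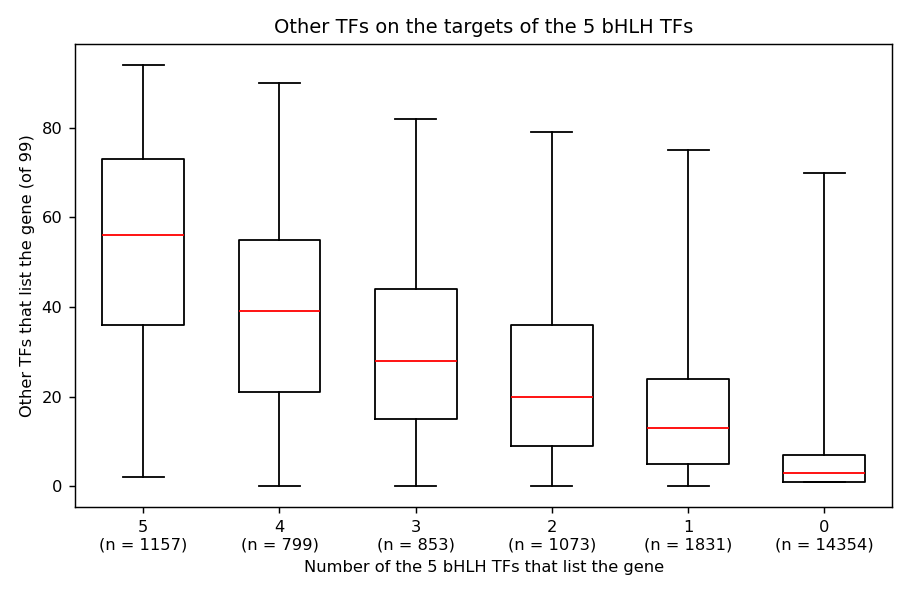
Number of the 99 other TFs that list a gene (vertical axis) for genes listed by 5, 4, 3, 2, 1 or none of the 5 bHLH TFs, with the median in red, quartiles as boxes and the lowest and highest gene as whiskers. The medians are 56, 39, 28, 20, 13 and 3, and the ranges overlap in all 6 classes.

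The members differed in how widely listed their less shared targets were. Genes listed by bHLH118 alone of the 5 had a median of 24 other TFs, against 14 for bHLH43, 13 for bHLH163, and 8 for both bHLH162 and bHLH172. Genes of exactly bHLH162 and bHLH172 had a median of 8, and those of exactly bHLH43 and bHLH163 had 22. Genes of every member but bHLH118 had a median of 22, against 35 to 52 in the other combinations of 4. Among the genes of 1 member those of bHLH118 were the most widely listed, and among the combinations of 4 the one without bHLH118 was the least.

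Core targets also carried the low p-values of each list. For bHLH172 a p of at most 0.001 was listed for 52.9% of core targets, against 1.99% of the genes it alone of the 5 listed. The shares were 41.0% and 0.559% for bHLH118, 40.0% and 1.02% for bHLH43, 39.1% and 1.5% for bHLH162, and 29.7% and 0.677% for bHLH163. The median p on core targets was 7.27e-04 for bHLH172, 0.00191 for bHLH118, 0.00210 for bHLH43, 0.00216 for bHLH162 and 0.00410 for bHLH163. For genes of 1 member it lay between 0.0263 (bHLH172) and 0.0319 (bHLH118), toward the upper limit of 0.05 in the table. Of the targets with a p of at most 0.001, between 69.2% (bHLH172) and 80.5% (bHLH43) were core. In 452 of the 1157 core targets (39.1%) the smallest of the 5 p-values was that of bHLH172, and in 125 (10.8%) that of bHLH163.

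**Figure D4:**
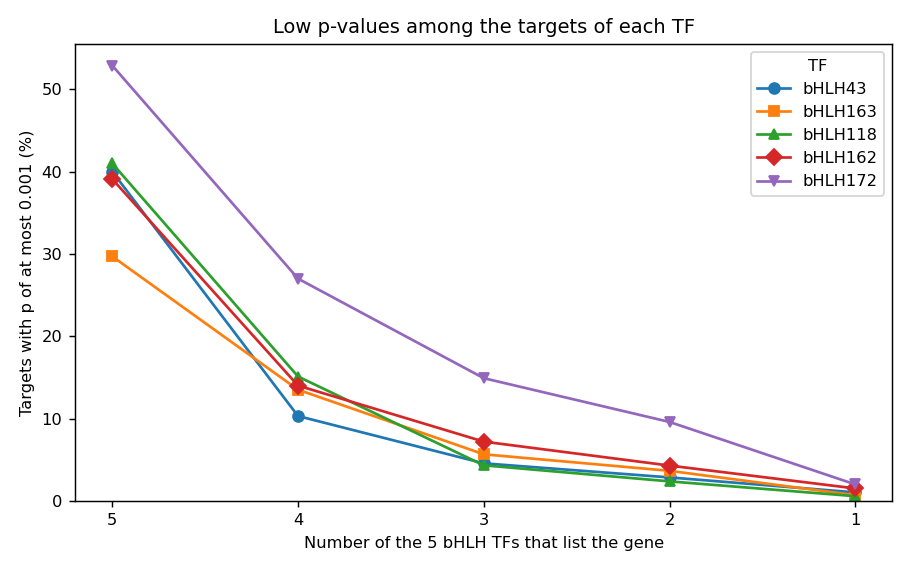
Percent of the targets of each bHLH TF with a p of at most 0.001 (vertical axis) among genes listed by 5, 4, 3, 2 or 1 of the 5 TFs. All 5 lines fall toward genes of 1 TF, where they lie between 0.559% and 1.99%, and bHLH172 is the highest throughout, with 52.9% on core targets.

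Not every core target rested on low p-values. At a p of at most 0.001, 120 core targets were listed by all 5 TFs, 133 by 4, 170 by 3, 225 by 2 and 253 by 1, and 256 (22.1%) by none. The 120 genes had a median of 81 other TFs. A gene of the core is thus a gene that passed the listing threshold 5 times, and the p-values behind it could be weak in each list.

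The core target with the largest sum of -log10 p over the 5 TFs was Zm00001d020834, which the study's hub list assigns to the bHLH family. Its p was 5.77e-08 for bHLH43, 1.16e-08 for bHLH163, 7.04e-13 for bHLH118, 6.24e-13 for bHLH162 and 2.24e-20 for bHLH172. It was among the 3 smallest p-values of the bHLH118, bHLH162 and bHLH172 lists, and 84 other TFs also listed it. Zm00001d038196, the fifth by the sum, had fewer other TFs (48) and was uneven, with 4.91e-21 for bHLH172, the smallest p in that list, 2.25e-10 for bHLH162, 7.89e-07 for bHLH118, 9.40e-06 for bHLH43 and 0.00161 for bHLH163. Zm00001d017699 led the bHLH43 list and was uneven in the other direction. Its p was 2.59e-11 for bHLH43, 1.56e-09 for bHLH163, 9.22e-12 for bHLH118, 1.15e-06 for bHLH162 and 0.00136 for bHLH172. All 15 places among the 3 smallest p-values of each list were held by core targets.

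A small part of the core had few other TFs. There were 6 core targets with at most 5 other TFs and 24 (2.07%) with at most 10, and 13 (1.12%) were listed by none of the 6 other bHLH TFs. The fewest were 2, for Zm00001d003784 and Zm00001d017481. Zm00001d003784 had a p of 0.0150 for bHLH43, 0.0360 for bHLH163, 0.0285 for bHLH118, 4.04e-04 for bHLH162 and 3.34e-06 for bHLH172, so bHLH162 and bHLH172 gave its low values. The p-values of Zm00001d017481 lay between 0.00154 (bHLH43) and 0.0332 (bHLH118). Of the 24 genes, bHLH129 listed 14 (58.3%) and bHLH136 listed 10 (41.7%), against 14.6% and 14.7% of all genes. The other bHLH TFs listed fewer, namely bHLH145 4 (16.7%), bHLH47 3 (12.5%), bHLH108 1 (4.17%) and bHLH91 0. TCP10 and EREB172, which are not bHLH, listed 8 each (33.3%), against 16.7% and 12.3% of all genes. MYB31, which listed the most core targets, listed 2 of the 24.

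Genes that 1 member listed without the other 4 numbered 443 for bHLH163, 403 for bHLH172, 358 for bHLH118, 334 for bHLH162 and 293 for bHLH43, which is 9.35% (bHLH43) to 14.0% (bHLH163) of a list. After removal of genes that any of the 6 other bHLH TFs listed, 207 remained for bHLH172, 167 for bHLH162, 160 for bHLH163, 125 for bHLH118 and 98 for bHLH43. Targets that none of the other 103 TFs listed were few, 25 for bHLH172, 15 for bHLH162 and 2 each for bHLH43, bHLH163 and bHLH118. Their p-values were high. The smallest was 0.00321 for bHLH172 (Zm00001d044018) and 0.00337 for bHLH162 (Zm00001d026382), and the medians were 0.0297 over the 25 genes and 0.0217 over the 15.

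Other TFs differed in how much of the core they listed. MYB31 listed 969 of the 1157 core targets (83.8%), bHLH47 listed 950 (82.1%) and bHLH136 listed 946 (81.8%), against 15.2%, 15.3% and 14.7% of all genes. The fewest were listed by bHLH91 (6), MYBR40 (44) and GATA12 (196, or 16.9%), and bHLH91 and MYBR40 also had the shortest lists of all, with 21 and 161 targets. On the genes of exactly bHLH43 and bHLH163, bHLH136 listed 49.0% and MYB31 listed 46.2%. The median share over the 99 other TFs was 26.0% on these genes. On the genes of exactly bHLH162 and bHLH172 this median was 12.6%, and bHLH136 listed 18.7% and MYB31 listed 13.7%. bHLH129 listed 27.5% of the genes of bHLH162 and bHLH172 and 37.0% of those of bHLH43 and bHLH163, against 14.6% of all genes. bHLH145 listed 23.6% of the genes of bHLH162 and bHLH172 and 14.4% of those of bHLH43 and bHLH163, against 12.0% of all genes.

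The profiled TFs were themselves among the targets. Of the 96 TF genes that appear in the table as targets, 23 (24.0%) were core, and 43 (44.8%) were listed by at least 1 of the 5. Over the other 19971 genes these shares were 5.68% and 28.4%. The TF genes had a median of 19.5 other TFs, against 5 over all genes, and the part of that difference in the shares was not tested. Each member listed between 30 (bHLH172) and 34 (bHLH118) TF genes.

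Genes of the ethylene response factor family (EREB), which acts in ethylene and stress responses, made up the largest group. Of the 13 EREB genes, 8 were core (EREB34, EREB54, EREB97, EREB98, EREB109, EREB147, EREB198 and EREB209) and 4 more were listed by 2 or 3 members, with EREB172 listed by none. The core share of 61.5% stands against 5.77% of all genes, and the family's median of 57 other TFs against 5. EREB97, with 90 other TFs, had a p of 1.03e-06 for bHLH43, 2.34e-04 for bHLH163, 1.64e-05 for bHLH118, 1.35e-06 for bHLH162 and 2.50e-09 for bHLH172. EREB54 was less even, with 3.72e-06 for bHLH172 and 2.53e-05 for bHLH118 but 0.0479 for bHLH163.

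Genes of the ZIM family, whose JAZ members repress jasmonate responses and bind MYC-type bHLH factors, were listed by at least 1 of the 5 TFs in 5 of 6 cases (83.3%, against 28.5% of all genes), and 3 were core (50%, against 5.77%). The 6 genes had a median of 43 other TFs, against 5 over all genes. ZIM27 had a p of 1.87e-14 for bHLH172, 2.41e-06 for bHLH43, 5.81e-06 for bHLH118, 4.39e-05 for bHLH162 and 2.76e-04 for bHLH163. The smallest was that of bHLH172, as in 39.1% of core targets. ZIM28 had 5.42e-05 for bHLH172 and 0.0167 for bHLH162. ZIM16 lay between 0.00336 (bHLH118) and 0.0326 (bHLH163). ZIM18 was listed by none of the 5, although the ZIM18 protein, as a profiled factor, listed 854 (73.8%) of the core targets.

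Of the 3 NAC genes, a family of stress and senescence regulators, NAC49 and NAC23 were core (66.7%, against 5.77% of all genes). The family's median was 81 other TFs, against 5 over all genes. NAC109 was listed by bHLH162 (0.00745) and bHLH172 (1.27e-04) and by 60 other TFs. NAC49 had the smallest p of the whole bHLH162 list, 1.36e-15, and 2.32e-10 for bHLH118, 9.74e-09 for bHLH172 and 7.00e-07 for bHLH43, against 0.00370 for bHLH163. Of the 5 WRKY genes, a family of defence regulators with a median of 64 other TFs here, WRKY95 and WRKY94 were core. The share of 40% stands against 5.77% of all genes. WRKY95 was even across the members, from 1.41e-06 (bHLH163) to 1.11e-04 (bHLH43), and together with HB33 it was a core TF gene for which bHLH163 gave the smallest value. GRAS23, of the family that holds the DELLA repressors, had 3.22e-06 for bHLH172 and 9.17e-06 for bHLH162, while bHLH118 (0.0147), bHLH163 (0.0327) and bHLH43 (0.0475) listed it with high p-values. Of the 7 homeobox (HB) genes, 3 were core (42.9%, against 5.77% of all genes) and the other 4 were listed by none of the 5. The median of the 7 was 32 other TFs. HB66 and HB70 had their smaller p-values with bHLH162 (2.70e-06 and 4.18e-05) and bHLH172 (1.05e-05 and 4.14e-05), as GRAS23 did. HB33 had none under 0.00316. The other core TF genes were MYB81, COL18, the gene Zm00001d021291 of the pseudo-response regulator family of clock proteins, and bHLH91.

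**Figure D5:**
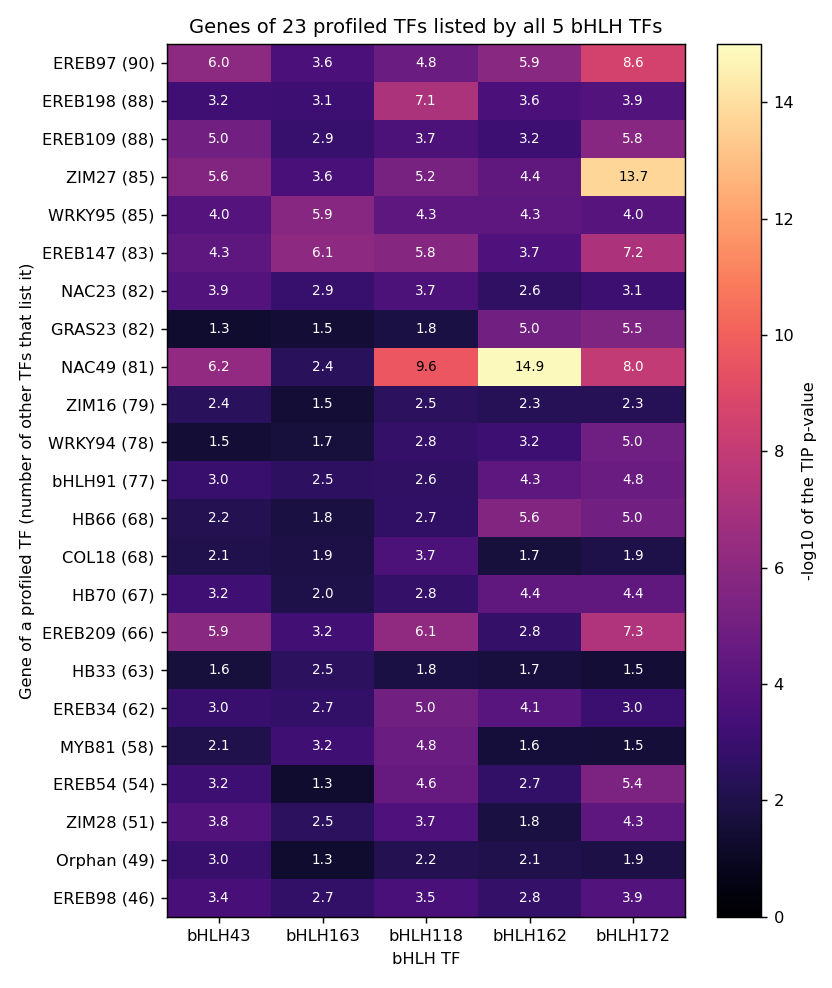
Size of -log10 of the TIP p-value for the 23 profiled TF genes listed by all 5 bHLH TFs, with the number of other TFs in brackets, ordered by that number. The highest cells are NAC49 with bHLH162 and ZIM27 with bHLH172, while ZIM16 and HB33 are low with every member.

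None of the 6 bZIP, 4 DOF, 7 GLK, 8 MYBR or 4 C2C2-COL genes was listed by all 5 TFs. COL18, which was core, is not among the 4 because the study's list of constructs files it as an orphan. With 5.77% of all genes in the core, a core count of 0 in groups of 4 to 8 genes lies near the share of all genes. No member listed a bZIP or DOF gene at all, whereas 28.5% of all genes were listed by any of the 5. Whether the 6 bZIP and 4 DOF genes fall below that share was not tested. The median number of other TFs was 11 for bZIP genes, 2.5 for DOF, 6 for GLK, 10.5 for MYBR and 18 for C2C2-COL genes, against 57 for EREB, 81 for NAC and 5 for all genes. The DOF genes ranged from 1 to 60 other TFs, with DOF21 at 60. Of all genes with 41 to 60 other TFs, 7.08% were listed by none of the 5. TF genes that a single member listed were COL2 for bHLH43 (0.00440), GLK9, bHLH108 and bHLH43 for bHLH118, and bHLH118 and bHLH172 for bHLH172.

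Of the 9 bHLH genes that appear as targets, 1 (11.1%) was core, against 5.77% of all genes. At least 1 member listed 5 of them (55.6%), against 28.5% of all genes, and their median was 28 other TFs, against 5. The gene of bHLH91 was a core target with 77 other TFs and a p of 0.00103 for bHLH43, 0.00290 for bHLH163, 0.00258 for bHLH118, 5.47e-05 for bHLH162 and 1.73e-05 for bHLH172. bHLH118 listed the bHLH43 gene (0.00126) and the bHLH108 gene (0.0474), and bHLH172 listed the bHLH118 gene (0.00764). The bHLH163, bHLH47, bHLH129 and bHLH136 genes were listed by none of the 5, and those of bHLH162 and bHLH145 do not appear as targets of any TF in the table. bHLH172 listed its own identifier with a p of 0.00214, and 8 TFs outside the set listed that identifier too. The paper states that reads from the transformed plasmid could map to exons of the expressed TF's own gene. Whether such reads had a part in the bHLH172 entry was not tested. No other member listed its own gene, and since the authors removed peaks in the locus of each expressed TF, such a link could not be seen where the removal was complete.

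The hub genes with a TF family, which the study assigned from annotation, add TFs that were not profiled. Of these 44 genes, 40 were core, among them all 12 WRKY and all 5 MYB genes, and 9 of 12 ERF genes. The share of 90.9% was close to the 90.7% (147 of 162) of hub genes with no TF family. Hub genes were defined by the number of TFs that list them, and every gene of both groups had at least 79 other TFs. Of all genes with 81 or more other TFs, 91.2% were core. The comparison therefore cannot show whether TF genes stand out among hubs.

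Of the 8 genes of C4 photosynthesis that the study followed, 7 appear in the table. Of these, 2 (28.6%) were core and 3 (42.9%) were listed by at least 1 of the 5, against 5.77% and 28.5% of all genes, and their median number of other TFs was 11. CA1, a carbonic anhydrase that supplies bicarbonate to the C4 cycle, had a p of 1.94e-11 for bHLH172, 3.36e-06 for bHLH162, 3.79e-06 for bHLH118, 7.08e-06 for bHLH163 and 1.89e-04 for bHLH43, and 91 other TFs listed it. PPDK, which regenerates the acceptor phosphoenolpyruvate, had 29 other TFs and weaker values, 0.00267 for bHLH162, 0.00369 for bHLH163, 0.00892 for bHLH43, 0.0202 for bHLH118 and 0.0246 for bHLH172. CA2 was listed by bHLH163 (0.00699) and bHLH118 (0.0360). PEPC, NADP-MDH, RbCS1 and RbCS2 were listed by none of the 5 TFs. The protoplasts were mesophyll cells, while the paper describes key C4 genes as specific to either mesophyll or bundle sheath cells. Whether the cell type had a part in these listings was not tested.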

How the data were processed

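Libraries of TF ChIP-seq from B73 leaf protoplasts were aligned by the authors to B73 RefGen_v4 with Bowtie2 2.2.5 and filtered with SAMtools 1.3. Peaks were called with SPP against input, while the input that served each TF was not looked up. Peaks that were reproducible between replicates were kept, and peaks in blacklisted regions and in the TF's own locus were removed. Targets were scored with TIP, for which the authors state a false-discovery threshold of 0.05. The deposited values are TIP p-values, 1 per TF and listed gene, with replicates pooled. The largest is just under 0.05. The values are labelled as p-values, and how they relate to the stated false-discovery threshold was not tested. The table holds neither counts nor depth, so the depth is unknown and no interval is given.

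Each listed pair was taken as a target. Overlaps, exact combinations of the 5 TFs, Jaccard indices and the number of other TFs per gene were computed with Python 3.11.15, numpy 2.4.6, pandas 2.3.3, scipy 1.17.1 and matplotlib 3.10.9. The functions were tested on simulated data with planted overlaps. TFs were named from the study's list of constructs, hub genes and C4 genes from its supplements. The members and lists were chosen with earlier results of these data known. Genes named were the bHLH TFs as factors and genes, core TF genes, the core genes with the largest sum of -log10 p or with the fewest other TFs, the smallest p-values of each TF, its targets that no other TF lists, the C4 and hub genes, and the TFs and pairs at both ends of each ranking. Zm00001d017699 and Zm00001d038196 are the leading genes of the bHLH43 and bHLH172 lists. The files do not pair target identifiers with gene names (RefSeq matched 1 of 20067), so only a few unnamed identifiers are given, and lists of clock, iron, light and jasmonate genes were not analysed here. Promoter motifs, protein sequences, peak positions and expression were not analysed here. Alternatives were lists restricted to a p of at most 0.001 or 1e-05 or to the 1000 smallest p-values per TF, each of the 5 TFs left out, another overlap measure and another definition of the core.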

Additional observations from a re-analysis of the deposited data

How the results depend on the processing

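All values rest on the listing threshold. With a p of at most 0.001 in every list, the median list of the 5 TFs held 604 targets, the core 120 genes, genes of 1 member 687, the mean Jaccard index was 0.312, and the median number of other TFs was 53.5 on the core and 9 on genes of 1 member. With a p of at most 1e-05 these were 125, 16, 295, 0.188, 41.5 and 7 in the same order, and with the 1000 smallest p-values per TF (ties included) they were 1000, 264, 898, 0.376, 51 and 10. As deposited they are 3135, 1157, 1831, 0.476, 56 and 13. In each of these settings the median number of other TFs was highest on the core and lowest on genes of no member, and bHLH163 with bHLH172 was the lowest pair, whereas the highest pair was bHLH162 with bHLH172 in all but the deposited lists. At a p of at most 0.001 the closest list to bHLH43 was that of bHLH47 (0.341). In the leave-one-out of each of the 5 TFs, the core held 1257 to 1381 genes, genes of 1 member numbered 1827 to 1996, the mean Jaccard index was 0.464 to 0.489, and the median of other TFs was 52 to 56 on the core and 13 to 14.5 on genes of 1 member. Shared targets over the shorter list averaged 0.652 in place of the Jaccard index. Counting the 93 TFs that are not bHLH gave a median of 53 on the core, and a core of genes listed by at least 4 members held 1956. Added after the data were seen, a sixth member, bHLH47, left 950 core genes, the mean Jaccard index without the pair of bHLH162 and bHLH172 was 0.472, and counting either of that pair as 1 TF gave 1502 core genes with a median of 53 other TFs. No paired analysis was possible because the table pools the replicates of each TF, and for the same reason no replicate was left out. The part that depth and peak number per TF had in these overlaps was not tested.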

Other observations

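Identifiers of the B73 RefGen_v4 annotation carry a running number, and core targets often came in consecutive numbers. Of the 1157 core targets, 370 (32.0%) had a core target with the next or the previous number. The share was 15.0% among the 799 genes of 4 members, 15.6% among the 853 genes of 3, 11.4% among the 1073 genes of 2 and 17.6% among the 1831 genes of 1. The 14354 genes of no member had 62.3%, a class so large that neighbours fall in it more easily. ZIM27 (Zm00001d027900) and ZIM16 (Zm00001d027901) are such a pair in the core. Whether these genes lie side by side, share a promoter region or take their listing from 1 peak was not tested.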
